A study of Mus musculus with 47 samples.

Results

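ATF4 and 9 genes of the stress response that it directs were followed across 4 tissues of mice fed a methionine-restricted diet. The 10 genes (Atf4, Atf3, Atf5, Ddit3, Trib3, Chac1, Sesn2, Ddit4, Eif4ebp1 and Cebpb) were chosen by symbol as listed, and all 10 were found among the 26608 symbols of the count tables. The mice were male, of the inbred strain C57BL/6J, and received either a control diet (CON, 6 animals) or a methionine-restricted diet (MR, 6 animals) from 5 weeks of age for 11 weeks. Housing was at 23 C, and the animals had been without food for 5 h when 4 tissues were dissected: the gastrocnemius (called muscle here), the liver, the interscapular brown fat (BAT) and the inguinal white fat (IWAT). Libraries are named by diet and animal number. All 12 animals contributed a library from each tissue, apart from 1 restricted animal without a muscle library here, so that 47 libraries entered the analysis. The labels name no genotype, transgene or drug, and the methionine content of the diets is not given in the labels.

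Cells that lack an amino acid, or that accumulate unfolded proteins in the endoplasmic reticulum, phosphorylate the translation factor eIF2alpha. Translation then slows in general while that of a few mRNAs with upstream reading frames, Atf4 and Atf5 among them, increases. ATF4 is a basic leucine zipper factor that binds with C/EBP partners to C/EBP-ATF response elements and raises transcription of enzymes and transporters for amino acids, of further stress factors (Atf3, Atf5, Ddit3, which encodes CHOP), of the feedback inhibitor Trib3, of the glutathione-degrading enzyme Chac1, and of brakes on the kinase TOR complex 1 (Sesn2, Ddit4) and on cap-dependent translation (Eif4ebp1, which encodes 4E-BP1). In liver this response is best known for Asns and for the secreted factor Fgf21. Tag counts measure the mRNA of these genes, not the translation by which ATF4 protein is mainly set.

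Each library held short tags cut next to the NlaIII site (CATG) nearest the 3′ end of a transcript, so 1 tag stands for 1 transcript irrespective of its length. The tags themselves are not part of the count tables. The tag expected for each member was read from the last CATG of its GENCODE transcript, and these sequences are shown because the position of a tag goes with which members 4 of the libraries report. Each is written 5′ to 3′ with the NlaIII site in capitals, and 27 bases are given where the transcript holds them.
Ddit4: CATGtttgtt
Ddit3: CATGtccagtaaagtgactttgtgtca
Trib3: CATGtgcccaataaaagagagctgtgt
Eif4ebp1: CATGattactattctctgtccagtgtt
Sesn2: CATGgggggaagttctagaggggacac
Atf5: CATGaacataaagcaggaagccactct
Chac1: CATGttccgggccttctggatgaggga
Atf4: CATGtgtaaaggaggaagacactccct
Atf3: CATGaactggctggcaccaggggagtg
Cebpb: CATGgcggccggtttcccgttcgccct
The order is that of the distance from the site to the end of the transcript, which is 10 bases for Ddit4, 30 for Ddit3, 43 for Trib3, 89 for Eif4ebp1, 142 for Sesn2, 300 for Atf5, 370 for Chac1, 517 for Atf4, 549 for Atf3 and 945 for Cebpb. The sites of Atf4 and Cebpb lie in the coding sequence and the other 8 in the 3′ untranslated region. The expected tag of Ddit4 ends after 10 bases.

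Library totals ran from 4887004 to 13117537 tags. The Spearman correlation of a library to the others of its tissue had a median of 0.857 to 0.972 in 43 libraries and of 0.582 to 0.719 in the remaining 4, which are CON3106, CON3115 and MR3116 of IWAT and MR3101 of muscle. In these 4 libraries the level of a gene fell with the distance of its tag from the transcript end beyond 50 bases. Over all genes with enough tags, the median log2 level relative to the tissue median was -0.19 to 0.249 at 1 to 20 bases, 0.591 to 1.803 at 21 to 50 bases and -3.49 to -1.92 beyond 500 bases. The other 43 libraries stayed between -0.18 and 0.17 in every distance class. The markers of each tissue were present: the summed hepatocyte markers were at least 93030 CPM in every liver library and the skeletal muscle markers at least 31059 CPM in every muscle library, while all 12 white adipocyte markers were found in both IWAT groups and all 10 brown and beige markers in both BAT groups. In bulk tissue, fewer cells of a type and less RNA per cell cannot be told apart.

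Members with distant tags were low in these libraries, and those with near tags were mixed. Atf5 gave 3, 3 and 5 tags in CON3106, CON3115 and MR3116 of IWAT, against a median of 1111 in the other 9 IWAT libraries. Its log2 level relative to the tissue median was -7.166, -7.441 and -6.547 there, and -4.961 in muscle MR3101. Genes in the distance class that ends at 300 bases, which holds Atf5, had medians of -0.855, -0.36, -1.163 and -2.183. Atf5 was thus lower than its distance class in all 4 libraries, and the cause was not tested. Cebpb was at 0 in all 4 libraries that stand apart, which allows at most 0.760 CPM in any of them, and Chac1 was at 0 in muscle MR3101, against a median of 195 tags in the rest. Among the members with near tags, Ddit3 reached 382, 397 and 403 tags in the IWAT libraries and 547 in muscle MR3101, more than the medians of 245 and 270.5 tags elsewhere. Trib3 had 123, 100 and 209 tags in the IWAT libraries, against 150 elsewhere, and 31 in muscle MR3101, against 49.5. Eif4ebp1, with its tag at 89 bases, was lower in IWAT, at 533, 1381 and 525 tags against 2370 elsewhere, although genes at 51 to 100 bases had a positive median there. Diet results of the tested members in IWAT and muscle are therefore given with all libraries and without these 4.

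**Figure D1:**
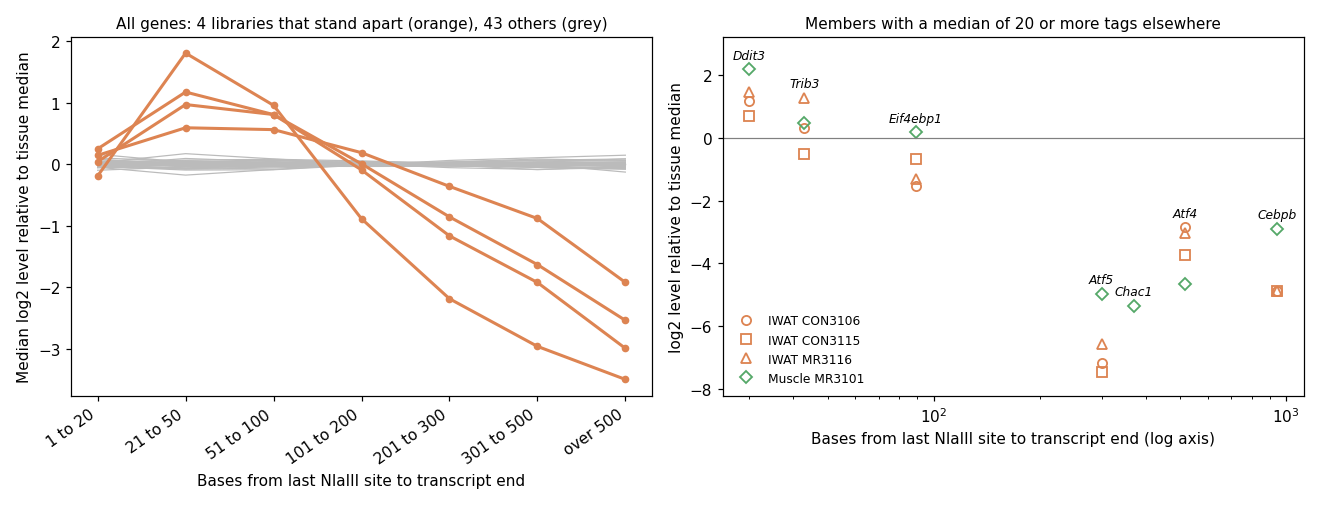
Left, median log2 level of genes relative to the tissue median (vertical) by distance class from the last NlaIII site to the transcript end (horizontal), 1 line per library. Right, the same log2 level for single members in the 4 libraries that stand apart. The 4 libraries decline from the class of 21 to 50 bases onward. The right panel leaves out members with few tags in the rest of the tissue, and those drawn at 300 bases or more (Atf5, Atf4 and Cebpb, and Chac1 in muscle) lie between -7.44 and -2.85.

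Tag numbers set what can be tested. Over the 47 libraries Atf5 had 115545 tags, Eif4ebp1 72001, Ddit3 11625, Trib3 8946, Cebpb 6561, Atf4 6546 and Chac1 2648. Ddit4 had 249 tags in all, Sesn2 185 and Atf3 143, with no library above 18, 14 and 11 tags respectively. Of the 10 members, 6 (Atf4, Atf5, Ddit3, Trib3, Eif4ebp1 and Cebpb) passed the filter on low counts in IWAT, BAT and liver, and Chac1 joined them in muscle. Atf3, Sesn2 and Ddit4 passed in no tissue. Counts were scaled within a tissue with TMM factors and are given as CPM, the tags of a gene per 1000000 scaled tags of the library. On this scale the median gene differed between diets (log2, restricted minus control) by 0.02 in IWAT, 0.00 in BAT, 0.01 in liver and -0.16 in muscle, and on plain totals by -0.06, -0.10, 0.18 and -0.25.

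No member passed the threshold for a diet effect (edgeR quasi-likelihood test, adjusted p under 0.05 over all genes) in any tissue. Genes called over the whole transcriptome were 0.027% in IWAT (3 of 11101), 1.11% in BAT (120 of 10791), 2.26% in liver (248 of 10969) and 0% in muscle (0 of 11225; 709 at an unadjusted p under 0.05). At an unadjusted p under 0.05 the members numbered 1 of 6 in IWAT, 2 of 6 in BAT, 3 of 6 in liver and 0 of 7 in muscle, where the shares of all genes were 8.78%, 13.6%, 14.5% and 6.32%. Without the libraries that stand apart, the members under this cut were 3 of 6 in IWAT and 1 of 7 in muscle. The shares of all genes in those fits were 15.7% and 3.22%. With all libraries, DESeq2 called Eif4ebp1 in liver and no other member in any tissue, and limma voom called none. All 6 tested members had a positive log2 difference in IWAT and in liver, 3 of 6 in BAT and 3 of 7 in muscle, although under single alternatives the sign turned for Atf4 in BAT, liver and muscle, for Cebpb in BAT, and for Ddit3 and Eif4ebp1 in IWAT and muscle. The median difference of the tested members was 0.88 in IWAT, -0.14 in BAT, 0.51 in liver and -0.26 in muscle, beside -0.02, 0.00, 0.01 and -0.04 over all genes.

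**Figure D2:**
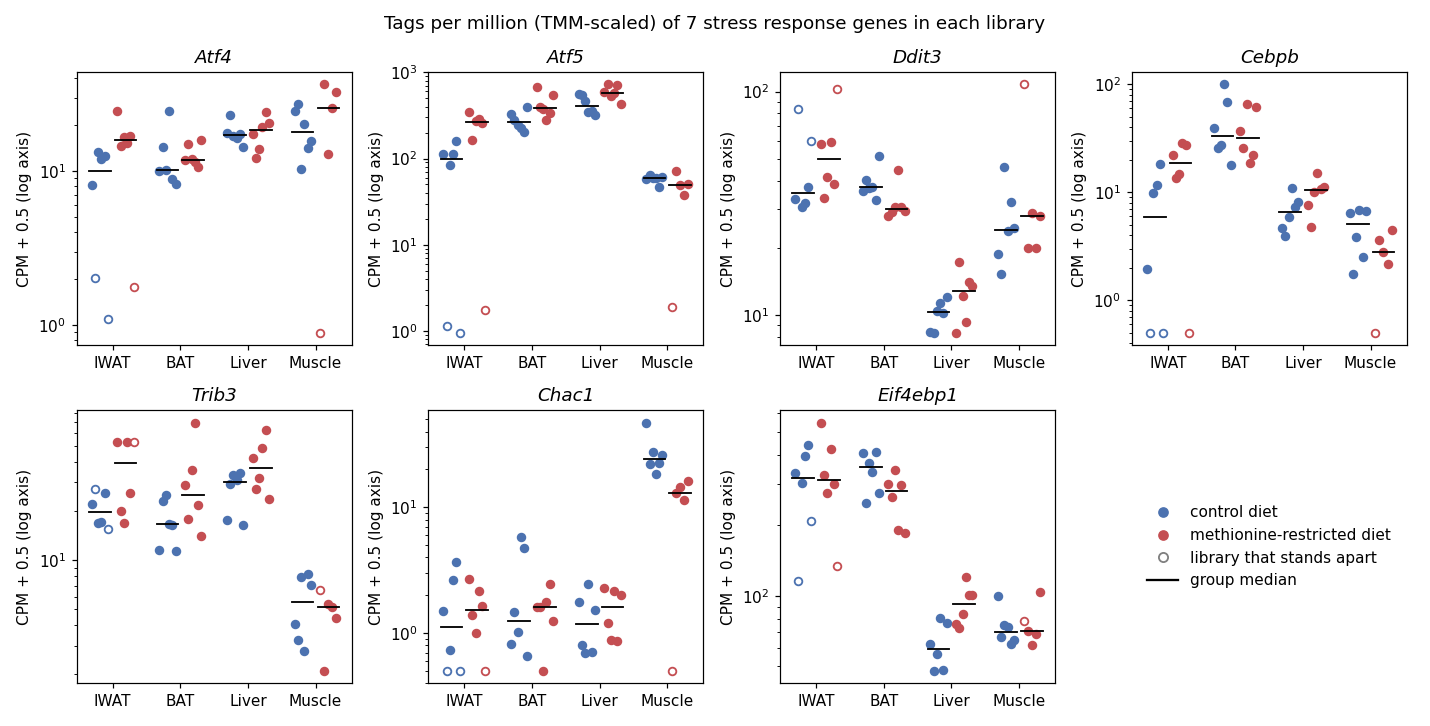
CPM plus 0.5 on a log axis (vertical) in each library, by tissue and diet (horizontal), for the 7 members tested in at least 1 tissue; open points are the 4 libraries that stand apart and bars are group medians. Chac1 in muscle is the member whose diet groups do not overlap with all libraries included, and Atf5 is higher in liver and BAT than in muscle.

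Atf4 itself (chr15:80255184-80257545, GRCm38.p6) was at a like level on both diets in liver, the tissue in which Asns and Fgf21 rose. Liver values were 13.9, 16.7 and 22.5 CPM (lowest, median and highest) on the control diet and 11.7, 17.8 and 23.5 CPM on the restricted diet. The groups overlapped almost completely, and the log2 difference was 0.02 ± 0.17 (SE; edgeR adjusted p = 0.971). BAT gave 7.72, 9.62 and 24.0 CPM in controls and 10.1, 11.3 and 15.4 CPM under restriction, a difference of 0.00 ± 0.27 (edgeR adjusted p = 0.999). All 6 restricted BAT libraries lay above the control median, but CON3112 was the highest of the tissue.

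In IWAT, Atf4 read 7.65, 11.5, 12.0 and 12.8 CPM in the 4 controls that did not stand apart and 14.1, 14.8, 16.2, 16.4 and 24.1 CPM in the 5 restricted libraries. Every restricted library was above every control, which held for 3.74% of the 11624 genes tested there. The log2 difference was 0.63 ± 0.22 (edgeR unadjusted p = 0.0155, adjusted p = 0.188), and 0.91 ± 0.71 (adjusted p = 0.922) with the other 3 libraries, which read 0.60 to 1.52 CPM in both diets. Muscle controls ran from 9.79 to 26.9 CPM with a median of 17.5. The restricted muscle libraries read 12.4 (MR3104), 25.2 (MR3109), 32.0 (MR3116) and 36.1 CPM (MR3102), and 0.39 CPM in MR3101. These overlapped the controls, and the difference was 0.55 ± 0.33 without MR3101 and 0.22 ± 0.65 with it (edgeR adjusted p = 0.99994 and 0.971).

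Atf5 (chr7:44812256-44816658, GRCm38.p6), a relative of ATF4 that is also governed by translation and acts on mitochondrial proteostasis, had a difference of 1.16 in IWAT without the libraries that stand apart, against 0.64 in BAT, 0.46 in liver and -0.14 in muscle. The 4 controls read 84.3, 113.4, 113.6 and 157.3 CPM, and the 5 restricted libraries 164.7, 254.6, 270.1, 287.8 and 350.8 CPM. Restricted libraries were above all controls, as for Atf4. The log2 difference was 1.16 ± 0.26, or 117 ± 30.1 against 266 ± 67.2 CPM (mean ± SD, n = 4 and 5), and it missed the threshold (edgeR unadjusted p = 0.00120, adjusted p = 0.0834). With all 12 libraries it was 1.50 ± 1.18 (edgeR adjusted p = 0.922), and the 3 libraries that stand apart read 0.45 to 1.27 CPM. The call depended on the fit. Adding a term for the 3 libraries gave 1.18 (edgeR adjusted p = 0.0129), DESeq2 without them 1.19 (adjusted p = 0.000795), and leaving out CON3114 as well 1.34 (edgeR adjusted p = 0.0379). The omission of CON3114 was the only 1 of 9 such omissions that passed, and the adjusted p reached 0.242 in the others. The fits with the term and with DESeq2 also called far more genes in all than edgeR without the 3 libraries, which called 0 of 11624.

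Brown and beige adipocyte markers moved with Atf5 in IWAT. Their summed level was 152 to 1432 CPM in the 4 controls and 2649 to 4856 CPM in the 5 restricted libraries, and all 8 tested markers of the 10 had positive differences (median 2.0; none passed), with Zic1 at 0 in the restricted group. MR3101 was highest and MR3102 lowest of the restricted libraries for both Atf5 and this sum, and CON3114 was highest of the controls for both. Fibroblast markers were lower in the restricted group for 10 of 10 tested genes (median -0.95; none passed). Skeletal muscle markers were lower for 12 of 12 tested genes (median -2.57; none passed), with sums of 22.1 to 2946 CPM in the 4 controls, CON3114 being the highest, and 29.97 to 677 CPM in the 5 restricted libraries. White adipocyte markers were lower for 9 of 12 (median -0.57) and macrophage markers for 9 of 11 (median -0.63), and none passed. Hepatocyte markers were lower for 7 of 8 (median -0.32; none passed). Their sums ran from 1168 to 11848 CPM in the controls, highest in CON3103, and from 1068 to 8576 CPM under restriction, highest in MR3113. Lymphocyte markers were uneven within the groups, with 2412 CPM in CON3107 and 13.7 to 47.5 CPM in the other 3 controls, and 12.7 to 1241 CPM under restriction. Leaving out CON3107 too gave 0.99 for Atf5 (edgeR adjusted p = 0.0731). The part of these cell markers in the result was not tested.

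Atf5 had positive differences in BAT and liver as well. BAT controls read 200.4, 261.6 and 400.8 CPM (lowest, median, highest) and restricted libraries 278.9, 388.1 and 683.8 CPM. All 6 restricted libraries exceeded the control median and 2 exceeded the highest control. The log2 difference was 0.64 ± 0.24 (edgeR unadjusted p = 0.0167, adjusted p = 0.241). Liver gave 317.6, 407.9 and 558.9 CPM against 428.9, 583.4 and 726.8 CPM, with 6 of 6 above the control median and 4 of 6 above the highest control. There the difference was 0.46 ± 0.17 (edgeR unadjusted p = 0.0147, adjusted p = 0.196). Muscle had no positive difference, with controls from 46.8 to 63.2 CPM and restricted libraries at 37.5, 48.2, 50.8 and 70.8 CPM beside MR3101 at 1.37 CPM. The muscle difference was -0.14 ± 0.19 without MR3101 and -0.46 ± 0.59 with it (edgeR adjusted p = 0.99994 and 0.971).

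Ddit3, whose product CHOP links prolonged stress to cell death, passed the test in no tissue. The IWAT controls that did not stand apart read 29.9, 31.1, 32.6 and 36.9 CPM and the restricted libraries 33.1, 38.1, 41.2, 57.7 and 59.3 CPM. Of the restricted libraries 4 of 5 lay above all controls, with a difference of 0.48 ± 0.21 (edgeR unadjusted p = 0.0448, adjusted p = 0.303). With all IWAT libraries the difference was 0.28 ± 0.36 (edgeR unadjusted p = 0.447, adjusted p = 0.99972). In BAT the direction was the opposite. Controls read 32.3, 36.8 and 51.3 CPM and restricted libraries 27.4, 29.3 and 44.0 CPM (lowest, median, highest), a difference of -0.30 ± 0.16 (edgeR adjusted p = 0.419), and 5 of 6 restricted libraries lay below every control. Liver differed by 0.31 ± 0.18 and muscle by -0.15 ± 0.29 without MR3101 (edgeR adjusted p = 0.462 and 0.99994). With MR3101, which alone read 107 CPM, the muscle difference was 0.61 ± 0.49 (edgeR adjusted p = 0.933).

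Cebpb encodes C/EBPbeta, a partner of ATF4 that is also a target of it and an early factor of adipocyte differentiation. Its tag lies farthest from the transcript end. Among the IWAT libraries that did not stand apart, controls read 1.44, 9.32, 11.2 and 17.7 CPM and restricted libraries 13.2, 14.2, 21.9, 26.8 and 28.3 CPM. The groups overlapped at their edges, and the difference was 1.07 ± 0.55 (edgeR adjusted p = 0.391), or 1.39 ± 1.18 with all IWAT libraries (adjusted p = 0.963). Liver gave 3.41, 6.12 and 10.4 CPM in controls and 4.27, 9.95 and 14.6 CPM under restriction, a difference of 0.58 ± 0.29 (edgeR adjusted p = 0.372). BAT values were spread widely in both diets, from 17.4 to 99.8 CPM and from 18.2 to 65.7 CPM, and differed by -0.27 ± 0.44 (edgeR adjusted p = 0.836). In muscle, where controls ranged from 1.25 to 6.31 CPM, it differed by -0.61 ± 0.44 without MR3101 and by -0.90 ± 0.64 with it (edgeR adjusted p = 0.99994 and 0.887).

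Atf3, a repressor induced by many kinds of acute stress, was close to the limit of detection. Its 143 tags were spread over 38 libraries, and 9 libraries held none. Group totals were 10 and 7 tags in IWAT (control and restricted), 12 and 17 in BAT, 16 and 21 in liver and 34 and 26 in muscle. A diet difference was not detectable at this depth. Fitted without the filter, the 4 log2 differences ran from -0.24 to 0.87 (edgeR adjusted p from 0.616 to 0.998).

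Trib3 (chr2:152337425-152344060, GRCm38.p6), the pseudokinase that feeds back on ATF4 and CHOP, had positive differences of like size in both fat depots and in liver. IWAT controls read 15.0, 19.1 and 26.7 CPM and restricted libraries 16.3, 39.0 and 52.9 CPM (lowest, median, highest), with all 12 libraries included. The restricted group split into 3 libraries between 52.6 and 52.9 CPM and 3 between 16.3 and 25.4 CPM. The high ones were MR3101, MR3109 and MR3116, of which MR3116 stands apart. On plain totals they read 49.1, 51.1 and 33.6 CPM. Genes with tags at 21 to 50 bases, as that of Trib3, had a median log2 level of 1.17 relative to the tissue in MR3116. The difference was 0.85 ± 0.35 (edgeR unadjusted p = 0.0325, adjusted p = 0.483), and 0.71 ± 0.38 without the 3 libraries (adjusted p = 0.415).

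In BAT, Trib3 read 10.9, 16.2 and 24.7 CPM in controls and 13.5, 24.8 and 69.4 CPM under restriction. Of the restricted libraries 3 of 6 exceeded all controls, and MR3109 was the highest. Its log2 difference was 0.86 ± 0.36 (edgeR unadjusted p = 0.0324, adjusted p = 0.308) and fell to 0.45 without MR3109 (adjusted p = 0.512). MR3109 was also the highest restricted BAT library for Ddit3. Liver values were 15.9, 29.6 and 34.0 CPM against 23.2, 36.5 and 61.9 CPM, a difference of 0.56 ± 0.25 (edgeR unadjusted p = 0.0405, adjusted p = 0.321). Muscle levels were low, 2.28 to 7.77 CPM in controls and 1.60 to 6.08 CPM under restriction. They differed by -0.26 ± 0.44 with all libraries and by -0.40 ± 0.41 without MR3101 (edgeR adjusted p = 0.971 and 0.99994).

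**Figure D3:**
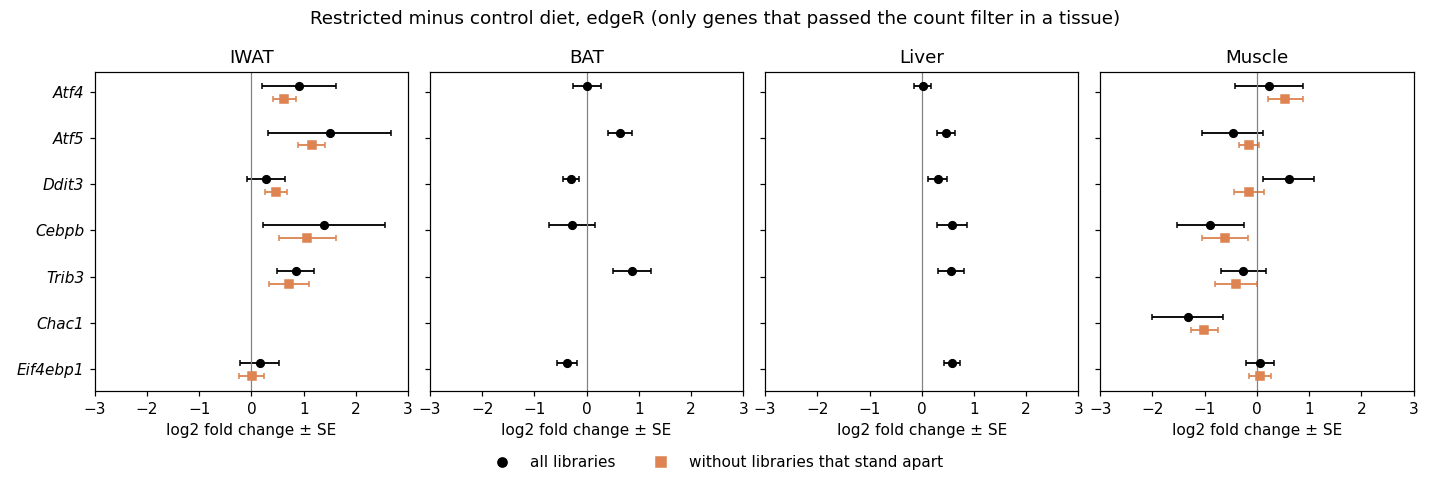
Log2 difference, restricted minus control, with its SE (horizontal) for each member that passed the count filter (vertical), in 4 tissues. Black points use all libraries and orange squares leave out those that stand apart. The error of Atf5 in IWAT shrinks from 1.18 to 0.26 and that of Chac1 in muscle from 0.68 to 0.26 when these are left out.

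Chac1 (chr2:119351242-119354326, GRCm38.p6), a gamma-glutamylcyclotransferase that breaks down glutathione, was the member whose diet groups did not overlap in muscle. Control muscle read 18.1, 23.8 and 46.7 CPM (lowest, median, highest) and the restricted libraries 11.0 (MR3109), 12.4 (MR3102), 14.1 (MR3104), 15.8 (MR3116) and 0 CPM (MR3101). Every restricted library was below every control, which held for 0.205% of the 11225 genes tested in muscle, and for 0.351% of genes without MR3101, the library with 0 tags. The log2 difference without MR3101 was -1.01 ± 0.26, or 26.8 ± 10.2 against 13.3 ± 2.07 CPM (mean ± SD, n = 6 and 4). It did not pass the threshold (edgeR unadjusted p = 0.00224, adjusted p = 0.99994; DESeq2 adjusted p = 0.310). With all 11 libraries the difference was -1.32 ± 0.68 (edgeR unadjusted p = 0.0733, adjusted p = 0.766). Atf4 in the same restricted libraries, MR3101 apart, was above the control median in 3 of 4.

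Outside muscle, Chac1 was too low to be tested. Group means were 0.83 to 1.93 CPM, with at most 21 tags in an IWAT library, 63 in BAT and 20 in liver. The highest BAT values were 5.35 CPM in CON3112 and 4.27 CPM in CON3114, and the other 10 BAT libraries had 1.94 CPM or less. These were also the BAT libraries highest in skeletal muscle markers, whose sum was 25454 CPM in CON3112, 13080 CPM in CON3114 and 10252 CPM in MR3113, and 126 to 6126 CPM in the other 9. MR3113 had the third highest Chac1 value, 1.94 CPM. In muscle itself the marker sum had a control median of 180913 CPM. The part of muscle tissue in the Chac1 values of BAT was not tested.

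**Figure D4:**
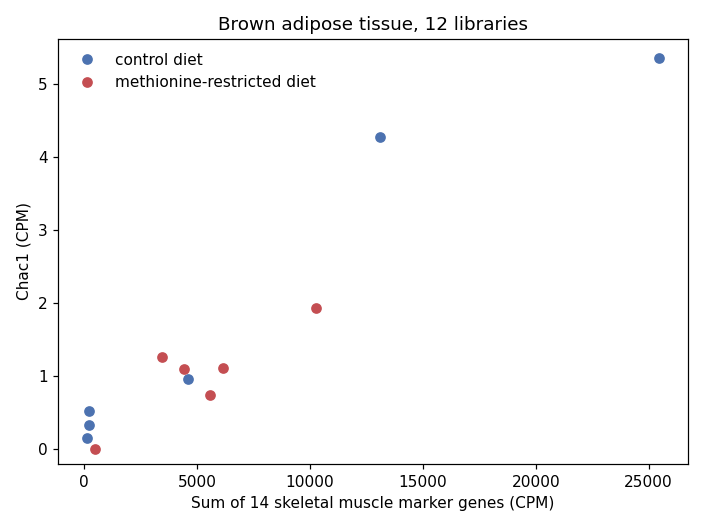
Chac1 in CPM (vertical) against the summed CPM of 14 skeletal muscle marker genes (horizontal) in the 12 BAT libraries, coloured by diet. The 3 libraries highest in the markers, CON3112, CON3114 and MR3113, are the 3 highest for Chac1.

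Eif4ebp1 (chr8:27260327-27275656, GRCm38.p6) encodes the translation repressor 4E-BP1 and came closest to the threshold in liver. Control livers read 47.3, 59.1 and 79.6 CPM and restricted livers 72.7, 91.8 and 119.3 CPM (lowest, median, highest). All 6 restricted libraries were above the control median and 4 were above every control. The log2 difference was 0.58 ± 0.16 (edgeR unadjusted p = 0.00250, adjusted p = 0.0761), or 61.5 ± 13.9 against 91.8 ± 18.0 CPM (mean ± SD, n = 6 and 6). DESeq2 gave 0.57 (adjusted p = 0.0257), and edgeR without CON3115 gave 0.64 (adjusted p = 0.0495). In BAT all 6 restricted libraries were below the control median, with 249.3, 352.9 and 408.2 CPM in controls and 184.5, 278.6 and 342.9 CPM under restriction. That difference was -0.38 ± 0.19 (edgeR adjusted p = 0.415). IWAT differed by 0.00 ± 0.24 without the libraries that stand apart and by 0.16 ± 0.38 with all (edgeR adjusted p = 0.998 and 0.99972). Muscle differed by 0.06 ± 0.27 with all libraries and by 0.06 ± 0.21 without MR3101 (edgeR adjusted p = 0.983 and 0.99994).

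Sesn2, a sensor that restrains TOR complex 1 when amino acids are scarce, and Ddit4 (REDD1), which restrains it under energy and glucocorticoid signals, were counted too rarely for a statement on diet. Sesn2 totals were 25 and 21 tags in IWAT (control and restricted), 33 and 47 in BAT, 20 and 29 in liver and 6 and 4 in muscle. Ddit4 totals were 32 and 40 in IWAT, 35 and 47 in BAT, 8 and 18 in liver and 31 and 38 in muscle, and 18 of the 38 came from MR3101. The expected Ddit4 tag is only 10 bases long, and how well such a tag could be mapped was not tested. Fitted without the filter, neither passed in any tissue (edgeR adjusted p from 0.521 to 0.998).

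Whether the diet effect differed between tissues was tested for each pair of tissues in 1 fit of all 47 libraries. None of the 48 combinations of a member and a tissue pair passed (edgeR), with 4 at an unadjusted p under 0.05. The share of all genes at that unadjusted cut is not given here, so these counts cannot be set against it. The share of all 13541 genes called was 0.0517% for IWAT against BAT, 0.591% for IWAT against liver, 0.436% for IWAT against muscle, 0.103% for BAT against liver, 0% for BAT against muscle and 0.0295% for liver against muscle. Over the 4 tissues together no member passed either (edgeR adjusted p from 0.472 to 0.998), where 0.524% of genes did. The 4 combinations at an unadjusted p under 0.05 were Trib3 in IWAT minus muscle (1.19, adjusted p = 0.265) and in BAT minus muscle (1.21, adjusted p = 0.290), Cebpb in IWAT minus muscle (2.36, adjusted p = 0.271) and Eif4ebp1 in BAT minus liver (-0.92, adjusted p = 0.630), all by edgeR. Without the 4 libraries that stand apart, 10 of 54 combinations were at an unadjusted p under 0.05 (edgeR) and 1 passed. This was Atf5, whose difference in IWAT exceeded that in muscle by 1.40 ± 0.36 (edgeR adjusted p = 0.0402), where 0.953% of 13751 genes were called. In the other pairs of that fit, in the same order, 0.48%, 1.72%, 0.713%, 0% and 0.124% of genes were called.

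Levels on the control diet differed strongly between tissues, as they did for many genes. In the joint fit 27 of 48 member and pair combinations passed (edgeR). Of all genes, 33.4% passed for IWAT against BAT, 49.7% for IWAT against liver, 52.5% for IWAT against muscle, 47.9% for BAT against liver, 40.9% for BAT against muscle and 56.8% for liver against muscle. Without the libraries that stand apart it was 33 of 54 combinations, beside 39.9%, 57.1%, 63%, 62.5%, 56.6% and 69.3% of all genes. The levels that follow are CPM scaled over all 47 libraries, with IWAT from its 4 controls that did not stand apart, and the tests leave out the 4 libraries.

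Atf5 was highest in liver at 526 ± 129 CPM (mean ± SD, n = 6), then 265 ± 73.0 in BAT, 91.9 ± 26.6 in IWAT (n = 4) and 64.6 ± 6.63 in muscle. BAT minus liver was -1.01 ± 0.22 on the log2 scale and IWAT minus BAT -1.52 ± 0.26 (edgeR adjusted p = 0.000117 and 1.22e-05), while IWAT and muscle did not differ past the threshold (adjusted p = 0.0626). With all libraries in the fit, liver and BAT did not differ past it either (edgeR adjusted p = 0.263). Trib3 followed the same order, with 32.3 ± 9.64 CPM in liver, 16.0 ± 5.37 in BAT, 15.7 ± 3.87 in IWAT and 5.67 ± 2.74 in muscle. Its levels in BAT and IWAT did not differ past the threshold (edgeR adjusted p = 0.960), and liver lay above both (adjusted p = 0.0111 and 0.0241).

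Ddit3 had another order, 36.7 ± 6.42 CPM in BAT, 29.5 ± 12.5 in muscle, 25.5 ± 3.24 in IWAT and 11.8 ± 1.83 in liver. Liver was lower than each of the other 3 tissues (edgeR adjusted p at most 5.90e-05), and the other 3 did not differ from each other past the threshold. Atf4 read 20.9 ± 3.54 CPM in liver, 20.5 ± 7.40 in muscle, 11.5 ± 5.68 in BAT and 8.54 ± 1.66 in IWAT. Liver and muscle, and BAT and IWAT, did not differ past the threshold (edgeR adjusted p = 0.884 and 0.223), and both former tissues lay above both latter ones (adjusted p from 0.000223 to 0.00515). With all libraries in the fit, BAT no longer differed past the threshold from liver or muscle (edgeR adjusted p = 0.175 and 0.203).

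Chac1 was largely a muscle transcript, at 30.1 ± 11.5 CPM in control muscle against 1.01 ± 0.88 in liver, 1.30 ± 1.03 in IWAT and 1.81 ± 2.13 in BAT. BAT minus muscle was -4.03 ± 0.57 on the log2 scale (edgeR adjusted p = 1.13e-07). Cebpb was highest in BAT, at 43.4 ± 29.6 CPM, against 4.70 to 7.75 CPM in the other tissues, which did not differ among themselves past the threshold. Eif4ebp1 was high in both fat depots, 323 ± 67.0 CPM in BAT and 288 ± 56.5 in IWAT, and lower in muscle and liver at 82.4 ± 15.6 and 75.0 ± 17.0 CPM. BAT exceeded liver by 2.09 ± 0.20 (edgeR adjusted p = 1.03e-11), and the pairs of BAT with IWAT and of muscle with liver did not differ past the threshold (adjusted p = 0.579 and 0.575).

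The other genes of the ATF4 response were read from lists of known targets. In liver, 5 of the 10 tested enzymes of amino acid and one-carbon metabolism rose and none fell, with a list median of 1.13 beside 0.01 over all genes. They were Asns, the asparagine synthetase (3.37 ± 0.41), Aldh1l2 of the mitochondrial folate cycle (3.15 ± 0.33), Psat1 of serine synthesis (2.99 ± 0.37), Pck2 (1.19 ± 0.15) and Aldh18a1 of proline synthesis (1.06 ± 0.25; edgeR adjusted p from 9.54e-05 to 0.0356). Asns read 4.89, 16.6 and 40.8 CPM in control livers and 173.3, 228.9 and 260.4 CPM in restricted livers, without overlap. All 6 restricted libraries lay above all controls for 1.18% of genes in liver. The transporter Slc7a5, which exchanges large neutral amino acids, rose (1.36 ± 0.18), and Slc43a1, another transporter of such amino acids, fell (-1.52 ± 0.23), with none of the other 6 tested transporters called.

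Of the other stress and secreted targets, 3 of 10 rose in liver (Vldlr 1.77 ± 0.34, Fgf21 1.76 ± 0.35 and Gdf15 1.01 ± 0.23; edgeR adjusted p from 0.0103 to 0.0329). Fgf21 read 2.65, 3.67 and 12.9 CPM in controls and 10.4, 20.1 and 23.2 CPM under restriction, and 5 of 6 restricted libraries were above every control. None of the 12 aminoacyl-tRNA synthetases was called, although 11 of 12 had positive differences (median 0.29). Among 14 tested genes of the endoplasmic reticulum chaperone list only the co-chaperone Dnajb9 passed (0.44 ± 0.10, edgeR adjusted p = 0.0374), and Cebpa, a liver partner of the same leucine zipper family, fell (-0.48 ± 0.09, edgeR adjusted p = 0.0120). The 6 tested members had differences of 0.02 to 0.58 in liver, with a median of 0.51. The target genes that rose past the threshold had 1.01 to 3.37, a range that is large because only called genes enter it. Over all tested genes of a list the median was 1.13 for the enzymes and 0.38 for the transporters. It was 0.29 for the synthetases and 0.19 for the other stress and secreted targets. No test was made between genes.

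**Figure D5:**
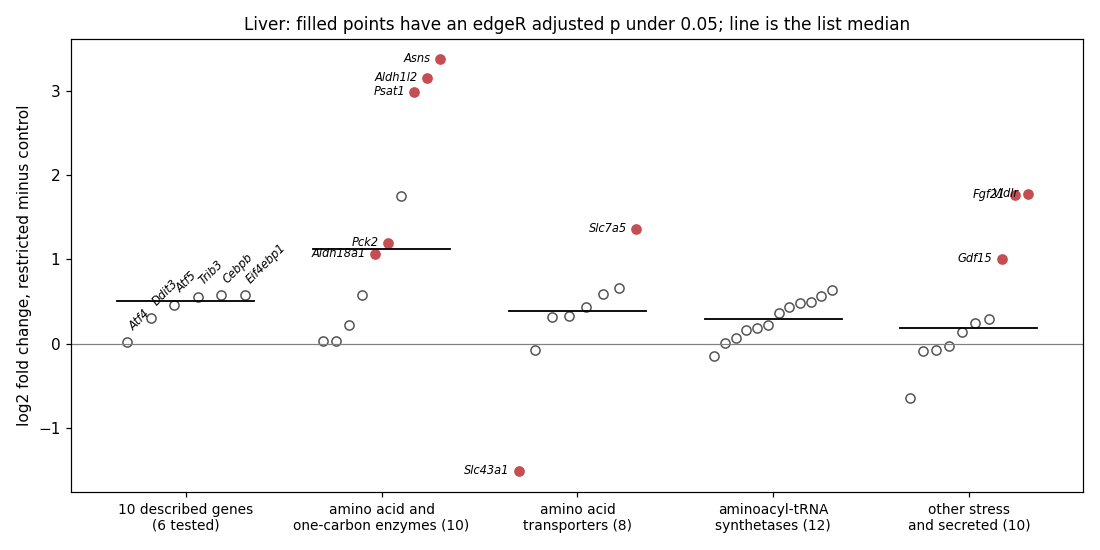
Log2 difference in liver, restricted minus control (vertical), for the tested members and for 4 lists of other ATF4 targets (horizontal, with the number tested). Filled points have an adjusted p under 0.05 and bars are list medians. The members lie between 0.02 and 0.58 with a median of 0.51. The medians of the 4 lists run from 0.19 to 1.13, and the called genes Asns, Aldh1l2 and Psat1 lie near 3.37, 3.15 and 2.99.

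Outside liver, no gene of the 4 ATF4 target lists was called in any tissue. Of all genes only 1.11% were called in BAT, 0.027% in IWAT and 0% in muscle (edgeR), so lists of this size would hold few calls or none. Asns differed by 0.24 ± 0.20 in BAT (edgeR adjusted p = 0.666), by 0.31 ± 0.24 in IWAT (adjusted p = 0.623) and by -0.28 ± 0.26 in muscle (adjusted p = 0.99994), the latter pair without the libraries that stand apart. The enzyme list had medians of -0.11 in BAT, -0.04 in IWAT and 0.02 in muscle in the same fits. Fgf21 was near the limit of detection there, with at most 17 tags in an IWAT library, 11 in BAT and 1 in muscle. In BAT the leucine zipper gene Fosl2 rose (1.33 ± 0.27, edgeR adjusted p = 0.0318). The lists of eIF2alpha kinases and phosphatases, TOR complex 1 regulators, mitochondrial chaperones and proteases, immediate early genes and glucocorticoid response genes held no called gene in any tissue (edgeR). The share of all genes called was at most 2.26%, in liver. The p53 target list held only Gdf15, which is also in the list of secreted targets.

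Promoter sequence was read because these genes are known to carry C/EBP-ATF response elements. In windows from 250 bases before to 50 bases after the RefSeq start (GRCm38.p6), TGATGNAA was searched on both strands and was found in 3.97% of 32851 promoters. It was present in 3 of the 9 members with a promoter entry (Atf3, Chac1 and Trib3) and in Fgf21 and Asns. The matches are shown in the direction of the gene with 10 bases on each side where the match is in capitals. They lie at chr1:191183426-191183453 (minus strand), chr2:119351039-119351066 (plus strand), chr2:152344029-152344056 (minus strand), chr7:45615612-45615639 (minus strand) and chr6:7693215-7693242 (minus strand), in this order.
Atf3: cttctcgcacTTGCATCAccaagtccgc
Chac1: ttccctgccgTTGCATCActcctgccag
Trib3: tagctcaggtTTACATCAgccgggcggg
Fgf21: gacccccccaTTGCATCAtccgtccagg
Asns: cccagccacaTGATGAAActtcccgcac
The matches begin at -110, -193, 15, -139 and -23 relative to the start. Those of Atf3, Chac1 and Fgf21 hold the stricter form TGATGCAA, which 0.895% of promoters had, and TGACGTCA, found in 1.79% of promoters, was in none of the 9. Atf4, Atf5, Ddit3, Sesn2, Ddit4 and Cebpb had an entry without a match in this window, and Eif4ebp1 had no entry. Of the genes with a match, Asns and Fgf21 rose in restricted liver. Chac1 had lower muscle values under restriction without passing the test, Trib3 passed in no tissue, and Atf3 was too low to be tested. Only the members, Asns and Fgf21 were looked up by name, so a link of match and response was not tested.

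The genes most alike in their variation among animals were sought for each of the 6 members that passed the filter in all 4 tissues. The measure was the Spearman correlation of log2 CPM deviations from the group mean. Over the 43 libraries that did not stand apart, Clpp, the mitochondrial protease subunit, was nearest to Eif4ebp1 (0.86), Ubl3 to Atf5 (0.78), Chst12 to Trib3 (0.73), Ap2a1 to Cebpb (0.67), Cd59a to Ddit3 (0.62) and Gorasp2 to Atf4 (0.61). Over all 47 libraries only Clpp and Ap2a1 stayed nearest to the same members (0.78 and 0.83), and with the 4 libraries included the likeness also holds their shared dependence on tag distance. Among the members themselves the closest pairs were Eif4ebp1 with Cebpb (0.50) and Ddit3 with Trib3 (0.44), while Atf4 with Atf5 was at 0.23. These correlations share libraries, depth and tissue and carry no test.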

How the data were processed

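The deposited raw tables, 1 per tissue, hold the number of SOLiD SAGE tags per gene symbol and library as whole-number counts, with no normalization in the values. Per the labels' protocols, each library started with 7 to 12 ng of RNA, and fragments were counted where they mapped uniquely to RefSeq genes. The submitters' processing notes name mm10, GRCm38.p1 and DESeq. Not given in the sources used here: aligner and counter. The tables normalized by the authors were not used. No muscle library of MR3113 was analysed here.

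Each tissue was fitted on its own with the quasi-likelihood test of edgeR 4.0.16 (R 4.3.3), after filterByExpr (minimum count of 10) and TMM scaling, with Benjamini-Hochberg adjustment over all genes and a threshold of 0.05. Each animal was 1 replicate per tissue. Tissues were compared in 1 edgeR fit of 8 groups over the 26583 symbols held by all tables, since 25 symbols of the muscle table had the form of dates. The scripts were tested on simulated data. Totals of 4887004 to 13117537 tags limit a gene with 0 tags to 0.207 to 0.760 CPM (3 counts; counting error only). Libraries with a median Spearman correlation under 0.8 to the others of their tissue were said to stand apart. A pseudocount of 0.5 CPM was used for log values outside the fits. Tag positions came from GENCODE vM1 transcripts, used for distances only, and promoters from RefSeq on GRCm38.p6.

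Alternatives were DESeq2 1.42.0, limma voom (3.58.1), other scalings, no filter, and leaving out libraries. Tissues of an animal share its number, and the animal was therefore also fitted as a replicate block. Deviations from the group mean in libraries from 1 animal had a mean correlation of -0.055 to 0.059 over the 6 tissue pairs.

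The members and lists were chosen with earlier results of these data known. All members were named in every tissue, with Asns and Fgf21, and up to 3 called genes per list and tissue by smallest p; Pck2 and Aldh18a1 complete a count and were named after their values were seen.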

Additional observations from a re-analysis of the deposited data

Results flagged for a closer look

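Of 50 sets of values, each 1 tested member in the 5 or 6 libraries of 1 tissue and diet, 5 held a library far from the rest by Dixon's criterion, which chance alone gives in about 1 of 20 groups. In BAT, Atf4 read 24.0 CPM in control CON3112, the next highest control being 13.8 CPM; the same library had the highest sum of skeletal muscle markers in BAT, and its part was not tested. Ddit3 read 44.0 CPM in the restricted BAT library MR3109, with the next at 29.9 CPM. In muscle, Ddit3 read 107 CPM in MR3101 against 28.1 CPM in the next restricted library, and MR3101 is the muscle library that stands apart. Control CON3103 of muscle was the highest for both Chac1 (46.7 CPM, next 26.9 CPM) and Eif4ebp1 (99.7 CPM, next 74.5 CPM).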

How the results depend on the processing

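Most single-member results kept their direction and their side of the threshold. The number of genes called moved far more. In IWAT it was 3 with edgeR, 6 with upper-quartile factors, 310 with DESeq2, 7 with limma voom, 446 in the joint fit of 47 libraries, 0 without the 3 libraries that stand apart, 620 with a term for them, 227 without them and CON3107, and 0 to 41 with each library left out in turn. After the 3 were left out, DESeq2 size factors gave 13 genes, DESeq2 633, and leaving out each remaining library 0 to 269. BAT moved from 120 to 317 with DESeq2, 41 in the joint fit and 50 to 111 with each library left out. Liver moved from 248 to 490 with DESeq2, 29 in the joint fit and 158 to 322. Muscle moved from 0 to 2 with DESeq2, with and without MR3101, and stayed at 0 to 0 in each omission. Members called were 0, except 1 (Atf5) in IWAT with the term and with DESeq2 after the 3 were left out, 1 (Eif4ebp1) in liver with DESeq2, and 0 to 1 with each library left out in liver and in IWAT without the 3. Of the diet differences between tissues, 1 (Atf5) passed without the 4 libraries. In the fit of all 47 libraries 0 passed, and 0 with each animal left out of that fit. The fit without the 4 libraries was not repeated with animals left out. Tissue-level calls were 27, and 23 to 27 with each animal left out. The term, the exclusion of CON3107 with the 3, and the alternatives run after leaving out libraries were chosen after seeing the data. The cause was not tested.

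Signs changed for these differences, none of which passed the test. Eif4ebp1 in IWAT was 0.16, but -0.045 with the term and -0.12 without the 3 libraries and CON3107, and after leaving out the 3 it was -0.025 with limma voom and -0.001 without the filter. Atf4 was -0.009, -0.006 and -0.011 in BAT (DESeq2 size factors, upper-quartile factors, DESeq2), -0.001 in liver and -0.442 in muscle (limma voom). With each library left out the ranges that crossed 0 were Ddit3 in IWAT (-0.057 to 0.549), Eif4ebp1 in IWAT (-0.04 to 0.299; -0.16 to 0.107 without the 3), Atf4 in BAT (-0.098 to 0.314), liver (-0.095 to 0.111) and muscle (-0.051 to 0.548), Cebpb in BAT (-0.495 to 0.115), Ddit3 in muscle (-0.153 to 0.847; -0.271 to 0.09 without MR3101) and Eif4ebp1 in muscle (-0.088 to 0.179; -0.141 to 0.167 without MR3101). Chac1 in muscle kept its direction in all fits run (-1.51 to -1.01 with each library left out, -1.10 to -0.77 after MR3101 was left out, and -2.21 to -0.94 under the other settings).

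With the animal as a replicate block (limma voom, correlation -0.0325), Atf5 in BAT minus muscle (1.997, adjusted p = 0.1095) and Ddit4 in liver minus muscle (-1.46, adjusted p = 0.0595) no longer passed, and no other call changed. Atf3, Sesn2 and Ddit4 were limited by depth.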

Other observations

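Mitochondrial chaperones and proteases, the gene group on which ATF5 is known to act, had positive differences in restricted IWAT. In the 9 IWAT libraries that did not stand apart, 9 of 9 were positive with a median of 0.62 beside -0.06 over all genes, and with all 12 libraries 8 of 9 were positive with a median of 0.81. None passed the threshold in either fit (edgeR). The brown and beige marker sum differed between the same groups, as given for Atf5, and its part was not tested. In BAT the list median was 0.13, in liver 0.13 and in muscle -0.08 without MR3101.

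In BAT, where no member passed, 3 of 9 tested brown and beige markers rose: Elovl3, a fatty acid elongase (1.43 ± 0.25), Dio2, the type 2 deiodinase (1.31 ± 0.25), and Kcnk3, a potassium channel (0.85 ± 0.18; edgeR adjusted p from 0.0131 to 0.0414). Lep, the leptin gene, fell by 2.46 ± 0.50 (edgeR adjusted p = 0.0318). The white adipocyte list had 1 of 8 tested genes called. Skeletal muscle markers were lower for 14 of 14 tested genes (median -0.655) and fibroblast markers for 10 of 10 (median -0.696). Macrophage markers were lower for 9 of 9 (median -0.848) and hepatocyte markers for 4 of 4 (median -2.317). Endothelial markers were lower for 5 of 8 (median -0.115), and blood markers were higher for 3 of 4 (median 0.07). No gene of these 4 lower lists passed, and the part of cell markers was not tested.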
